A study of Saccharomyces cerevisiae with 4 samples.

Results

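The AAD and OYE genes of budding yeast, Saccharomyces cerevisiae, encode oxidoreductases that use NADPH or resemble enzymes that do. The group taken here was AAD3, AAD4, AAD10, AAD14, AAD15, OYE2 and OYE3, and its members were found as the probe sets that the platform annotation assigns to exactly 1 of these genes. That gave 6 probe sets for 5 of the 7 genes, out of 6504 probe sets for 5656 genes on the array. AAD3 and AAD15 had no probe set of their own. The group was chosen with the comparison of the strains already known, so the values and calls of its members are given as a description that supports nothing further.

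Expression was measured on 4 one-colour Affymetrix arrays, each with the RNA of its own culture in the rich medium YPD. Of these, 2 were labelled hst3hst4, the mutant strain YCB600, and 2 were labelled wild-type, strain YCB617. Both strains are of the FY background, and the labels give no further alleles. HST3 and HST4 encode deacetylases of histone H3 from the sirtuin family, which consume NAD, and the comparison asks how transcript levels differ between the mutant and the wild-type cultures.

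Aryl-alcohol dehydrogenases interconvert aromatic alcohols and aldehydes, and the yeast AAD genes were named for their likeness to such an enzyme of the white-rot fungus Phanerochaete chrysosporium. They belong to the aldo-keto reductases, a family that reduces aldehydes and ketones. The old yellow enzymes OYE2 and OYE3 carry the flavin FMN, take electrons from NADPH and reduce the double bond of unsaturated aldehydes and ketones, some of them toxic products of lipid oxidation. Several genes of both families are known targets of Yap1, a transcription factor of the response to oxidants and electrophiles.

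The signal is the linear MAS5 value per probe set, already scaled to a common trimmed mean on every array. A fold change is on the log2(signal + 3.3) scale, which understates the change of dim probe sets, and is hst3hst4 over wild-type with the standard error (SE) of the limma fit across 7420 probe sets. In that fit 156 probe sets passed a Benjamini-Hochberg adjusted p of 0.05 as higher and 40 as lower. Median signals were 37.5 and 41.2 in hst3hst4-labelled cultures and 37.9 and 38.3 in wild-type-labelled cultures. HST3 had signals of 0.4 and 0.5 in hst3hst4-labelled cultures, against 13.7 and 25.3 in wild-type-labelled cultures. Its probe set lay under the filter on dim probe sets and was not tested. HST4, however, went against the labels, with 38.0 and 39.3 (hst3hst4) against 3.6 and 0.9 (wild-type). The HST4 log2 fold change was 2.96 (limma adjusted p = 0.0104). The labels do not say where the HST4 probes lie relative to a deletion, so every direction below is that of arrays by their label. Scaling the arrays on 9 hybridisation controls shifted the median of the 7420 probe sets to a log2 fold change of 0.34, with 1163 higher and 23 lower calls. The changes below are therefore relative to the common mean. The ratio of 3' to 5' signal for the TATA-binding protein gene was 3.82 and 3.70 (hst3hst4) against 4.64 and 5.20 (wild-type), for SRB4, a mediator subunit, 2.34 and 1.90 (hst3hst4) against 1.87 and 1.63 (wild-type), the opposite direction, and for ACT1 1.73 and 1.78 (hst3hst4) against 1.70 and 1.88 (wild-type). The part of RNA quality in the values was not tested. Of 6 genes specific to mating type a, STE6 was lower (log2 fold change -1.05, limma adjusted p = 0.0284, a call lost without hst3hst4 replicate 1 or 2) and 5 did not pass. In that list 0 genes lay above 0, where 48.3% of all genes tested did. In the limma fit 3 had an unadjusted p under 0.05, and the list median was -0.37. Of 4 genes specific to mating type alpha, 0 passed, and 2 had an unadjusted p under 0.05 in limma, with a median of 0.65. Over all probe sets tested, 20.2% had an unadjusted p under 0.05. The summed signal of the a list was 3674 and 3897 in hst3hst4-labelled cultures and 4602 and 4417 in wild-type-labelled cultures, and that of the alpha list was 156.7 and 178.4 (hst3hst4) against 85.8 and 134.3 (wild-type). Their part in the values below was not tested.

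OYE3 was the member with the highest fold change. OYE3 (YPL171C, chromosome XVI, 226169 to 227371 in R64, the RefSeq assembly) had signals of 60.2 and 71.8 in hst3hst4-labelled cultures, against 19.3 and 27.5 in wild-type-labelled cultures. The groups did not overlap, and the lower mutant array stood 2.19-fold above the higher wild-type array. The mean was 66.0 ± 8.20 for hst3hst4 and 23.4 ± 5.80 for wild-type (SD, n = 2 each), a log2 fold change of 1.39 (SE 0.24), or 2.62-fold.

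OYE2 encodes the other old yellow enzyme, with a gene of the same length, 1203 bp (YHR179W, chromosome VIII, 462502 to 463704). Its signals were 1239 and 1141 in hst3hst4-labelled cultures and 1092 and 1076 in wild-type-labelled cultures. All 4 mutant to wild-type ratios lay between 1.04 and 1.15. The mean was 1190 ± 69.4 for hst3hst4 and 1084 ± 11.9 for wild-type (SD, n = 2 each), and the log2 fold change of 0.13 was about as large as its SE of 0.13.

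**Figure D1:**
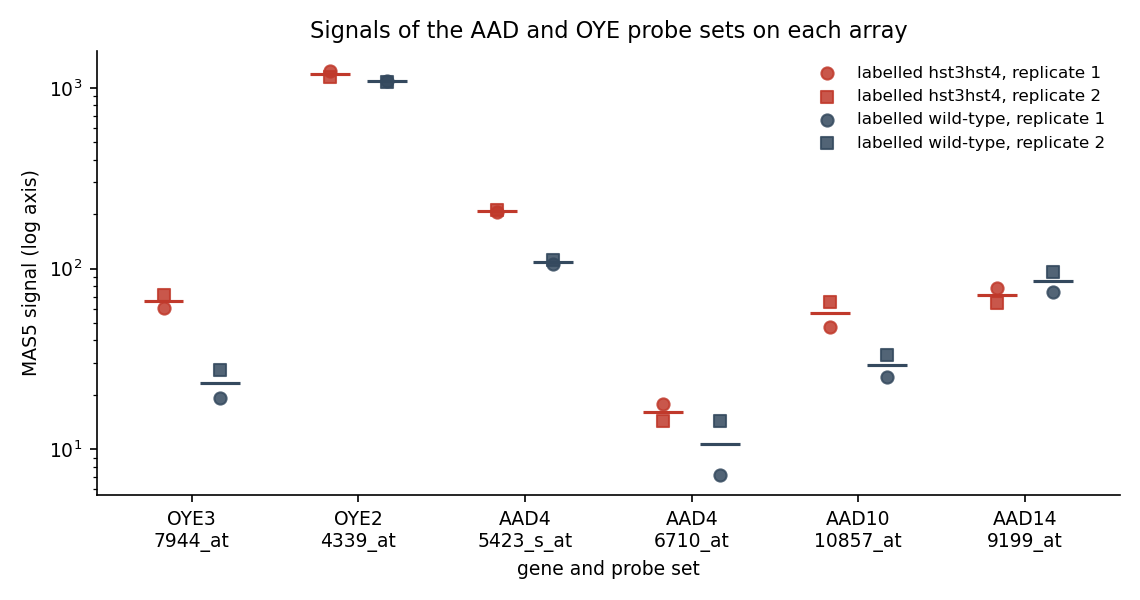
MAS5 signal (log axis) of the 6 AAD and OYE probe sets on each array. Circles and squares are replicates 1 and 2, red labelled hst3hst4 and dark grey labelled wild-type, and the lines are group means (n = 2). OYE3, OYE2, AAD10 and the brighter AAD4 probe set have both mutant arrays above both wild-type arrays, while the dimmer AAD4 probe set and AAD14 do not.

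AAD4 (YDL243C, chromosome IV, 17577 to 18566) had 2 probe sets, which held the tightest and the widest replicates among the AAD probe sets. The tight and brighter one, 5423_s_at, had signals of 206.1 and 209.8 in hst3hst4-labelled cultures and 105.5 and 111.6 in wild-type-labelled cultures. The log2 fold change was 0.92 (SE 0.16), or 1.89-fold, with ratios of the culture pairs from 1.85 to 1.99. The suffix _s_at is the manufacturer's mark for probes shared by more than one transcript, so this signal may include other members of the family. The other AAD4 probe set was dim, at 17.9 and 14.3 (hst3hst4) against 7.2 and 14.3 (wild-type), and its groups overlapped. Its log2 fold change was 0.51 (SE 0.37). The mean of both AAD4 probe sets was 0.71, and the value for the gene therefore rests on which one is read.

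AAD10 (YJR155W, chromosome X, 727405 to 728271) had signals of 47.3 and 65.7 in hst3hst4-labelled cultures, against 25 and 33.2 in wild-type-labelled cultures. These groups did not overlap either, but replicates differed more than for AAD4, and the ratios of the culture pairs ran from 1.42 to 2.63. The log2 fold change was 0.88 (SE 0.25), or 1.84-fold.

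AAD14 (YNL331C, chromosome XIV, 16118 to 17248), with 1131 bp the longest annotated AAD gene of the group, was the only measured member with a mean below that of wild-type. Its signals were 78.3 and 64.1 in hst3hst4-labelled cultures and 74.6 and 95.2 in wild-type-labelled cultures, which overlap. The log2 fold change was -0.24 (SE 0.21), and it was 0.12 when the arrays were scaled on the hybridisation controls.

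AAD3 (YCR107W, chromosome III, 313890 to 314981) and AAD15 (YOL165C, chromosome XV, 1647 to 2078) shared a probe set that the annotation assigns to both, so it can be read for neither. Its signals were 12.8 and 12.3 in hst3hst4-labelled cultures and 13.8 and 17.7 in wild-type-labelled cultures, a log2 fold change of -0.26 (SE 0.31). AAD15 is annotated with 432 bp and AAD3 with 1092 bp. AAD6 (YFL056C, chromosome VI), outside the group and annotated as a pseudogene, had signals of 3.1 and 7.6 (hst3hst4) against 2.7 and 13.0 (wild-type), under the filter on dim probe sets.

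Over the group, 5 of 6 probe sets had a log2 fold change above 0. By gene it was 4 of 5, where 48.3% of all 5271 genes tested lay above 0. In 4 of 6 probe sets both mutant arrays lay above both wild-type arrays, against 25.4% of all probe sets tested. The probe sets of OYE3 and AAD4 (5423_s_at) passed an adjusted p of 0.05 as higher in the limma fit, 2 of 6, where 2.10% of all probe sets did. The AAD4 call is that of the probe set whose signal may include other family members. The other AAD4 probe set did not pass (limma adjusted p = 0.483). Because the group was chosen on this contrast, nothing is read from these shares. The median log2 fold change of the 5 genes, each by its brightest probe set, was 0.88, beside -0.01 over all 5271 genes tested. Over the 6 probe sets the median was 0.69, so it depends on how AAD4 is read. Both calls were lost with no filter on dim probe sets and without the mean-variance trend. They were also lost without hst3hst4 replicate 1 or 2, fits in which the spread comes from the wild-type pair alone, the lone mutant array is assumed to vary like it, and 9 and 4 of 7420 probe sets pass. The log2 fold changes in those fits were 1.51 and 1.27 for OYE3 and 0.93 and 0.91 for AAD4 (5423_s_at).

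**Figure D2:**
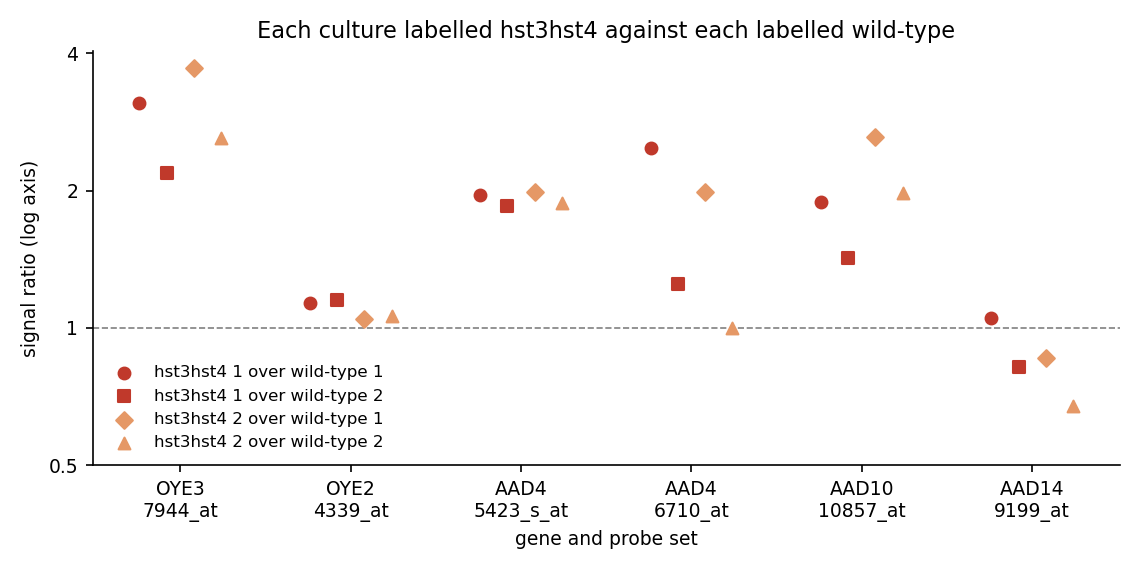
Ratio of signals (log axis) for each culture labelled hst3hst4 over each labelled wild-type, 4 pairs per probe set. The dashed line marks a ratio of 1. AAD4 (5423_s_at) pairs lie close together, between 1.85 and 1.99, while OYE3 pairs run from 2.19 to 3.72 and only 1 AAD14 pair lies above 1.

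Replicate cultures of a strain also differed. Between the wild-type cultures, replicate 2 minus replicate 1, the log2 signal differed by 0.45 for OYE3, 0.37 for AAD10, 0.34 for AAD14, 0.08 for AAD4 (5423_s_at) and -0.02 for OYE2. In a list of 32 general stress genes, 30 were lower in replicate 2 of the same cultures, with a median difference of -1.24. The part of this difference in the member values was not tested. In the comparison of the strains, 7 of these stress genes rose and 1 fell, or 25% called where 2.73% of all genes were. The stress genes passing were 2 with no filter, 2 without the trend and 22 after control scaling. Most of the stress gene calls were also lost without hst3hst4 replicate 1 or 2, where 1 mutant array is left. The median of the list was 0.81. Without hst3hst4 replicate 1 that median was 0.99, and without hst3hst4 replicate 2 it was 0.63. With wild-type replicate 1 left out that median was 1.49, and with replicate 2 left out it was 0.07. The summed signal of the stress list was 21524 and 25064 in hst3hst4-labelled cultures and 17758 and 10289 in wild-type-labelled cultures. The OYE3 log2 fold change ran from 1.16 to 1.61 and that of AAD4 (5423_s_at) from 0.88 to 0.96 when 1 array was left out. That of AAD10 ran from 0.65 to 1.10.

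**Figure D3:**
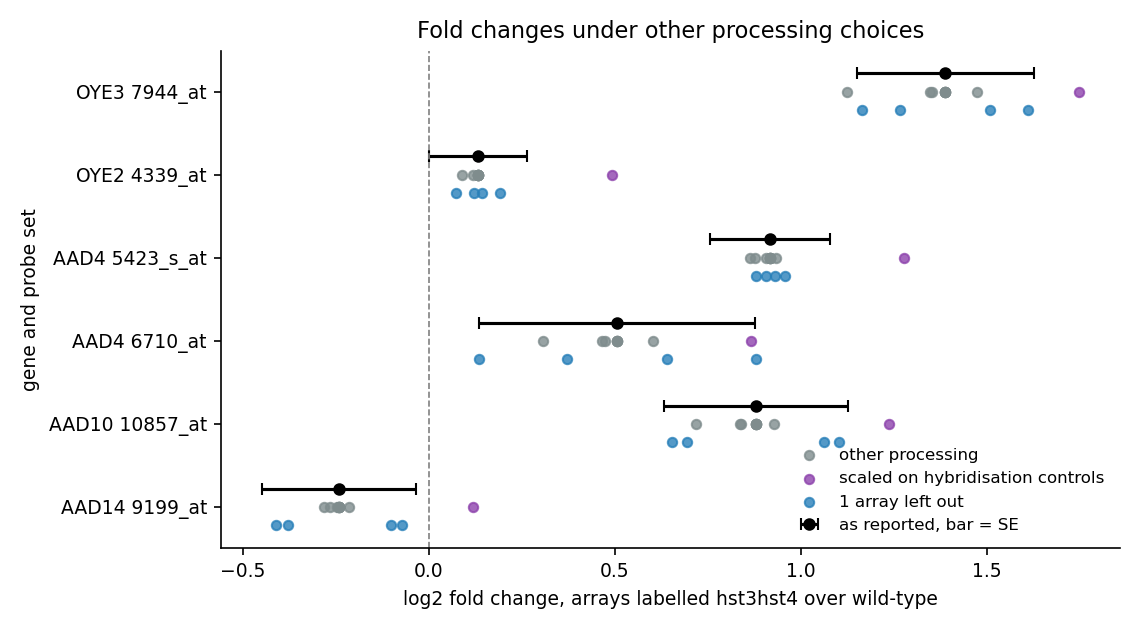
Log2 fold changes of the AAD and OYE probe sets as reported (black, with SE), under other processing choices (grey), after scaling on hybridisation controls (purple) and with 1 array left out (blue). OYE3, OYE2, AAD4 and AAD10 stay above 0 throughout, while AAD14 is at 0.12 after scaling on the controls and below 0 in the others.

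The regulators of these genes were read from a list of 15, of which 14 were tested. Of these 0 passed, where 2.73% of all genes tested did. In limma 2 had an unadjusted p under 0.05, where 20.2% of all probe sets tested did. YAP1, the activator itself, had signals of 31.0 and 56.4 in hst3hst4-labelled cultures, against 26.7 and 33.2 in wild-type-labelled cultures (log2 fold change 0.45, adjusted p = 0.441). HYR1, the peroxidase that relays the peroxide signal to Yap1, was at 0.40 (adjusted p = 0.195). The lowest values belonged to MSN2, an activator of stress genes, at -0.56 (adjusted p = 0.217), and CAD1, a paralog of YAP1, at -0.34 (adjusted p = 0.418). The list median was 0.02, and -0.13 to 0.22 with 1 array left out.

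Among genes known as Yap1 targets, AAD and OYE genes left out, 4 of 33 tested rose, 0 fell and 29 did not pass, or 12.1% called where 2.73% of all genes were. SRX1, the sulfiredoxin that restores oxidised peroxiredoxins, had signals of 122.6 and 126.8 in hst3hst4-labelled cultures, against 36.5 and 42.9 in wild-type-labelled cultures. Its log2 fold change was 1.58 (SE 0.19, limma adjusted p = 0.00893). ECM4, an omega-class glutathione transferase, rose 2.53-fold (adjusted p = 0.0232), and PRX1, the mitochondrial peroxiredoxin, rose 2.50-fold (adjusted p = 0.0194). FLR1, a multidrug transporter of the plasma membrane, rose 2.41-fold (adjusted p = 0.0377). The quinone reductase LOT6 had signals of 20.5 and 26.1 (hst3hst4) against 11.3 and 2.2 (wild-type), a log2 fold change of 1.56 that did not pass (adjusted p = 0.141). The lowest members were GSH1, the first enzyme of glutathione synthesis, at -0.32 (adjusted p = 0.486), and YLR460C at -0.26 (adjusted p = 0.587). The list median was 0.32, and 26 of 33 genes lay above 0, where 48.3% of all genes tested did. All 4 calls were lost without hst3hst4 replicate 1 or 2, where 1 mutant array is left and the log2 fold changes were 1.60 and 1.55 for SRX1, 1.57 and 1.11 for ECM4, 1.46 and 1.19 for PRX1 and 1.25 and 1.28 for FLR1. Those of ECM4, PRX1 and FLR1 were also lost with no filter on dim probe sets or without the trend. These lists were chosen with earlier results known and were not tested as sets.

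Of 19 other alcohol dehydrogenases and aldo-keto reductases tested, 0 passed and 3 had an unadjusted p under 0.05 in limma. Among all genes tested 2.73% passed, and 20.2% of all probe sets tested had an unadjusted p under 0.05. The list median of 0.26 became 0.11 with wild-type replicate 2 left out and 0.13 with hst3hst4 replicate 2 left out. GCY1, a glycerol dehydrogenase of the aldo-keto family, had the highest log2 fold change, 1.29 (adjusted p = 0.232), from signals of 153.9 and 199.7 (hst3hst4) against 141.1 and 33.6 (wild-type). YJR096W, an aldo-keto reductase, had signals of 165.3 and 199.7 (hst3hst4) against 148.1 and 59.6 (wild-type) (0.92, adjusted p = 0.22). In both genes wild-type replicate 2 was the low array, and the cause was not tested. ARA1, an arabinose dehydrogenase, was lowest at -0.46 (adjusted p = 0.487), and the mitochondrial alcohol dehydrogenase ADH3 followed at -0.22 (adjusted p = 0.441).

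**Figure D4:**
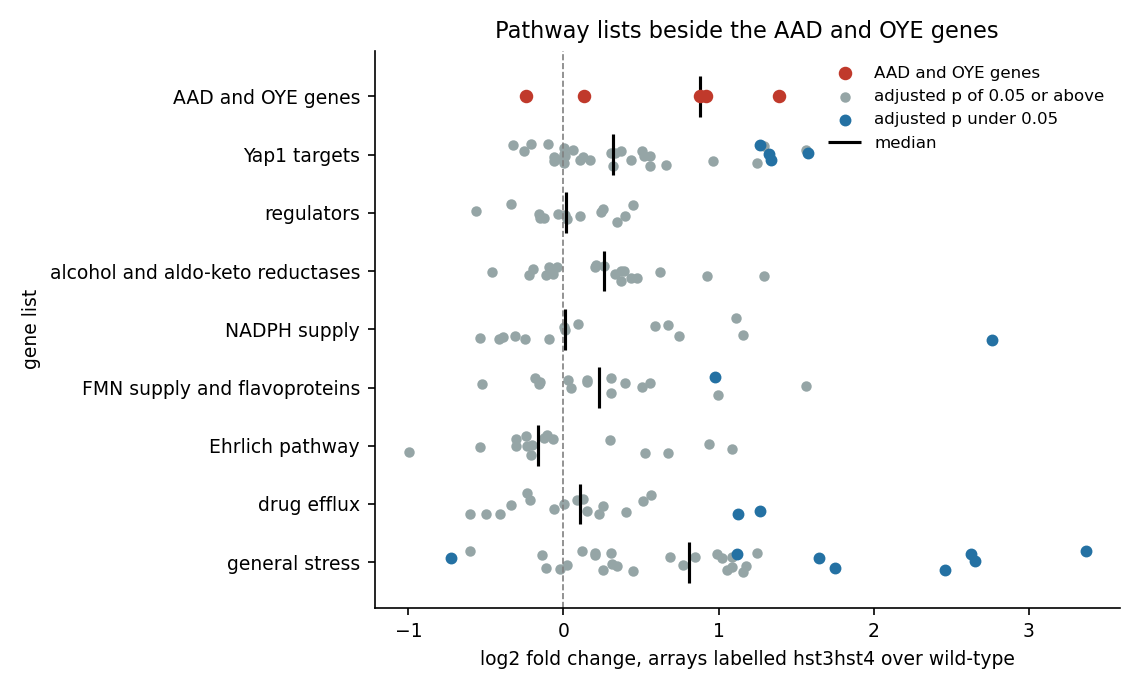
Log2 fold changes of the AAD and OYE genes (red, top row) and of the pathway lists, 1 point per gene and a bar at each median. Red points are not marked by whether they passed. Blue points passed a limma adjusted p of 0.05 and grey points did not. The list medians are 0.32 for Yap1 targets, 0.02 for regulators and 0.81 for general stress genes. The median of the AAD and OYE genes is 0.88, with each gene by its brightest probe set.

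Genes that supply NADPH, and genes that supply the FMN of the old yellow enzymes, were read as lists as well. Of 15 genes of NADPH supply, 1 rose, 0 fell and 14 did not pass, or 6.67% called where 2.73% of all genes were. The gene that rose was GND2, the minor 6-phosphogluconate dehydrogenase. Its signals were 80.8 and 73.7 in hst3hst4-labelled cultures, against 19.4 and 2.9 in wild-type-labelled cultures (6.78-fold, limma adjusted p = 0.0408). The log2 value, 2.76, became 1.83 when wild-type replicate 2 was left out and 3.70 when wild-type replicate 1 was. SOL4, a lactonase of the pentose phosphate pathway, was at 1.15 (adjusted p = 0.164), ALD6, the NADPH-forming acetaldehyde dehydrogenase, at -0.54 (0.337) and TKL1, a transketolase, at -0.41 (0.135). The list median was 0.01, and -0.09 to 0.18 with 1 array left out. Of 16 genes of FMN supply and flavoproteins, 1 rose, 0 fell and 15 did not pass, or 6.25% called. The median was 0.23, and 0.08 without wild-type replicate 2. PST2, a flavodoxin-like protein, rose 1.97-fold, with signals of 1447 and 1623 (hst3hst4) against 861.6 and 700.4 (wild-type) (adjusted p = 0.0218). The lactate dehydrogenase CYB2 was at 0.998 (adjusted p = 0.056), RIB7, of riboflavin synthesis, at -0.53 (0.25) and NCP1, the cytochrome P450 reductase, at -0.18 (0.512). The calls of GND2 and PST2 were lost without hst3hst4 replicate 1 or 2 (1 mutant array left; GND2 at 2.70 and 2.83, PST2 at 1.06 and 0.89), with no filter on dim probe sets and without the trend, and that of GND2 also after median centring and with a pseudocount of 1.

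The AAD genes lie near chromosome ends. In the R64 gene order, AAD3 is the gene ranked 2 from the right end of chromosome III and AAD15 ranked 2 from the left end of XV. AAD4 and AAD10 are ranked 6 from their nearest ends, and AAD14 is ranked 7. OYE2 and OYE3 are interior, ranked 49 and 117. AAD4, AAD10 and AAD14 each have a thiamine synthesis gene as a direct neighbour, THI13 at 350 bp, THI11 at 302 bp and THI12 at 263 bp, measured between gene ends, and none of these had a probe set of its own.

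Of 26 different genes among the nearest neighbours on each side, 16 were tested. None passed the limma test, where 2.73% of all genes tested did. An unadjusted p under 0.05 was seen for 3, where 20.2% of all probe sets tested had one. The median log2 fold change was 0.02. Next to OYE3, whose log2 fold change was 1.39, DAP1, a heme-binding protein, was at 0.52 (adjusted p = 0.154) and COX10, of heme A synthesis, at 0.02 (0.978). Next to OYE2, STB5, an activator of NADPH-forming genes, was at 0.02 (adjusted p = 0.976). Next to AAD10, YJR154W was at 0.07 (adjusted p = 0.949). Next to AAD14, RPD3, a histone deacetylase, was at -0.58 (adjusted p = 0.127), and PEX6, of peroxisome biogenesis and beyond RPD3, at -0.41 (0.276). Beside AAD15, YOL164W-A had signals of 20 and 12.7 (hst3hst4) against 8.5 and 3.6 (wild-type), with the log2 fold change at 1.10 (adjusted p = 0.211).

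**Figure D5:**
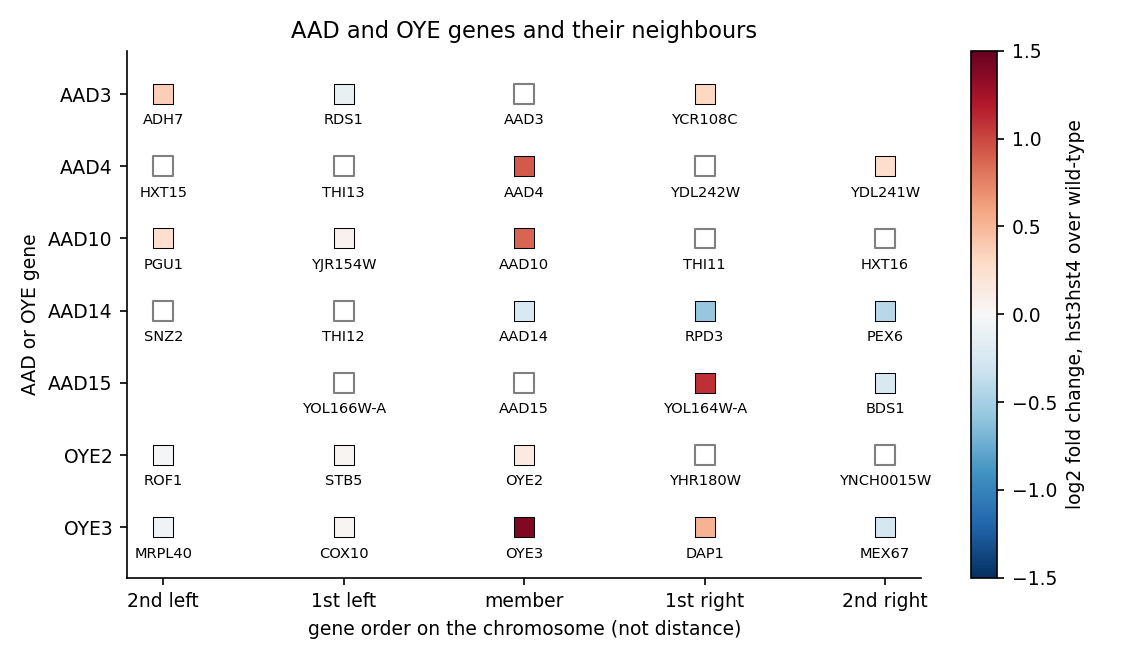
The AAD and OYE genes (centre column) with the nearest genes on each side, in chromosome order and not to distance. Colour is the log2 fold change of arrays labelled hst3hst4 over wild-type, and open squares had no probe set of their own. OYE3, AAD4 (5423_s_at) and AAD10, at 1.39, 0.92 and 0.88, stand beside measured genes whose values run from -0.26 to 0.52. The members were chosen with this contrast known, so nothing is read from that difference. AAD14, at -0.24, stands beside RPD3 at -0.58, and YOL164W-A, beside AAD15, is at 1.10. Beside AAD4 only YDL241W was measured, and beside AAD10 only the genes on its left.

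For each measured member the gene outside the group with the most similar pattern was found, as the smallest Euclidean distance between log2 values centred on each gene's mean over the 4 arrays. For OYE3 it was TOP3, a topoisomerase, with signals of 26.3 and 33.9 (hst3hst4) against 7.5 and 11 (wild-type) (distance 0.074). For AAD10 it was DUN1, a checkpoint kinase, with 57.9 and 71.8 (hst3hst4) against 29.4 and 36.0 (wild-type) (distance 0.136). For AAD4 it was TRK2, a potassium transporter, with 105.3 and 113.8 (hst3hst4) against 54.7 and 55.7 (wild-type) (distance 0.076). For OYE2 it was LSB3 (distance 0.019) and for AAD14 FYV7 (distance 0.014). With 4 arrays such a likeness is a description, and it was picked from all genes tested.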

How the data were processed

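Arrays were grouped by title. The table deposited by the authors holds 1 linear intensity per probe set and array; the submitters' processing notes name GCOS 1.4 and MAS5, and the scale target is not given in the sources used here. Per the labels' protocols, oligo-dT primed total RNA went through a single round of amplification. The 2% trimmed mean signal was 150.2 on all arrays. The design states independent cultures, so p-values cover the spread between cultures, and 2 arrays per group limit the precision.

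Of 9335 probe sets, 60 controls were left out. By the platform annotation, whose symbols were brought to RefSeq R64 through gene identifiers, 6504 probe sets had 1 gene (all matched), 328 had several and 2443 had none listed. The brightest probe set represented a gene. Signals were taken as log2(signal + 3.3), 3.3 being the 10th percentile, and the dimmest 20% were left out (1855 probe sets, under about 8.97). limma 3.58.1 (R 4.3.3) was fitted with a mean-variance trend (2 residual and 5.75 prior degrees of freedom), and p-values were adjusted over the 7420 tested.

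The members and lists were chosen with earlier results of these data known. The genes named were all members; HST3 and HST4; AAD6; the 2 highest and 2 lowest of each pathway list with the called genes of the Yap1, regulator and reductase lists; the nearest neighbours; and the closest pattern per member. STE6 and PST2 were named after their values were seen. The alternatives were quantile, median and control scaling, pseudocounts of 1 and 12.9, leaving out 0 or 40% of dim probe sets, eBayes without the trend, fitting only 1 probe set per gene, a replicate block, and leaving out each array.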

Additional observations from a re-analysis of the deposited data

How the results depend on the processing

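In the fit reported above, 7 of 124 genes of the pathway lists were called, or 5.65%, where 2.73% of all genes were. Against 196 probe sets called, 2 members called, a member median of 0.88 by brightest probe sets and 7 called pathway genes, the counts changed as follows. Scaling on the hybridisation controls called 1186 probe sets and 36 pathway genes and put the member median at 1.24. With no filter on dim probe sets 36 probe sets, 0 members and 1 pathway gene passed in limma, and without the mean-variance trend 38, 0 and 1, with 3 members at an unadjusted p under 0.05 in both, as were 17.3% and 17.1% of all probe sets. The replicate number as a block called 343 probe sets and 12 pathway genes. The replicate differences of the 2 groups were not correlated across probe sets (r = -0.041). That value cannot tell whether same-numbered cultures shared a batch. Leaving out 1 array called 4 to 865 probe sets, 0 to 3 members and 0 to 29 pathway genes, with member medians from 0.65 to 0.96. The counts of 0 came without hst3hst4 replicate 1 or 2, where 1 mutant array is left and the member medians were 0.93 and 0.65. The cause was not tested. The Ehrlich pathway median turned to 0.20 after control scaling. Dim probe sets, such as the second of AAD4, and 2 arrays per group limit what could be shown.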

Other observations

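The Ehrlich pathway turns amino acids into fusel alcohols through aldehydes that alcohol dehydrogenases reduce. Of 16 of its genes tested, 0 passed and 4 had an unadjusted p under 0.05 in limma. Among all genes tested 2.73% passed, and 20.2% of all probe sets tested had an unadjusted p under 0.05. The list median was -0.16, and -0.24 to -0.04 with 1 array left out. ARO10, the phenylpyruvate decarboxylase, had signals of 56.8 and 70.6 in hst3hst4-labelled cultures, against 100.4 and 167.7 in wild-type-labelled cultures (log2 fold change -0.999, adjusted p = 0.0968). The aldehyde dehydrogenases ALD3 and ALD2 were highest, at 1.09 (adjusted p = 0.19) and 0.94 (0.086), and ALD6 was at -0.54 (0.337).

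Some drug efflux pumps are targets of Yap1 as well. Of 18 tested, 2 rose, 0 fell and 16 did not pass, or 11.1% called where 2.73% of all genes were. FLR1 is counted above among the Yap1 targets too. The median was 0.11, and 0.02 to 0.27 with 1 array left out. PDR10, an ATP-binding cassette transporter, rose 2.18-fold, with signals of 132.6 and 171.3 in hst3hst4-labelled cultures, against 61.9 and 73.0 in wild-type-labelled cultures (adjusted p = 0.0326), a call lost with dim probe sets kept, without the trend, and without hst3hst4 replicate 1 or 2 (1 mutant array left, log2 fold changes 1.31 and 0.95). The lowest were the proton antiporters QDR2 at -0.60 (adjusted p = 0.106) and TPO4 at -0.50 (0.436).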
